A study of Mus musculus with 22 samples.

Results

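The 39 protein-coding genes of the 4 mouse Hox clusters were examined in whole spinal cord. They were taken from the deposited count table of 21995 genes as every row whose mouse symbol is Hoxa, Hoxb, Hoxc or Hoxd followed by a number alone. Hoxa held 11 of them, Hoxb 10, Hoxc 9 and Hoxd 9. The rule uses symbols and gene type only. RNA-seq was available from 22 C57BL/6 mice in 4 groups: 8 young wild-type males at 3–4 months, 8 old wild-type males at 18–24 months, 3 SOD1-G93A mice labelled 5–6 months and 3 wild-type controls labelled with the same age. The SOD1-G93A strain, a widely used model of amyotrophic lateral sclerosis (ALS), carries a mutant human SOD1 transgene in high copy number and becomes paralysed. Both sexes were present in the SOD1-G93A experiment. All cords were extruded, that is, pushed out of the spinal column, into cold saline. Young and old libraries were made with the Roche KAPA HyperPrep kit and the other 6 with Illumina TruSeq, so the aging and the SOD1-G93A experiments were compared within themselves only.

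Hox genes encode homeodomain transcription factors that give cells their position along the head-to-tail axis. Within each cluster the genes lie in the order of their paralog number, and genes with low numbers are expressed from the hindbrain and neck downwards while genes with high numbers are restricted to lumbar and sacral levels. In the spinal cord they assign motor neurons to columns and pools: Hox5 proteins act in the phrenic motor neurons, Hoxc6 and Hoxc8 in those of the forelimb, Hoxc9 in thoracic cord and Hox10 proteins in the lumbar motor neurons of the hindlimb. Part of this order of expression along the cord persists in the adult.

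Libraries held 5078092 to 9358055 counts in the young, 5664869 to 9145600 in the old, 10693060 to 13219797 in the control and 9675610 to 11872431 in the SOD1-G93A group. The Hox genes together took between 5311 and 13309 counts per library. Mouse Sod1 was at 156 to 168 CPM (counts as a rate per library size, scaled by the TMM method) in the 3 controls and at 296 to 335 CPM in the 3 SOD1-G93A libraries, a log2 difference of 0.95 (SE 0.090, adjusted p = 0.000241, edgeR). Reads of the human transgene may count in part to the mouse gene. Markers of cord neurons were detected in every library: Snap25 at 1159 to 3054 CPM, Rbfox3 at 79.3 to 220.1 and Chat, of motor neurons, at 12.4 to 30.7. SOD1-G93A library d4435 was the lowest of the 22 in Snap25 and Rbfox3, against 2763 to 2869 and 155.1 to 164.6 CPM in the controls. Otx2, a forebrain and midbrain gene, and Mrgprd, a sensory ganglion gene, had 0 counts throughout.

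In young mice, 28 of the 39 genes reached a mean of 1 FPKM (fragments normalised to transcript length and library size, a level that is comparable between genes), 14 reached 10 and 5 reached 30. Summed levels rose with paralog number to a peak at paralog 8 and then fell off. Paralog 8 held 174.1 ± 4.57 FPKM (SD, n = 8) in the young, or 34.9% of the Hox total, against 1.41 ± 0.38 for paralog 1, 80.4 ± 9.28 for paralog 9, 35.5 ± 7.77 for paralog 10 and 3.30 ± 1.52 for paralog 11. Paralogs 12 and 13 summed to 0.69 ± 0.62 and 0.72 ± 0.72 FPKM. The Hoxb cluster gave 48.0% ± 0.80 of the Hox FPKM, Hoxa 21.6% ± 0.23, Hoxc 18.5% ± 0.73 and Hoxd 11.9% ± 0.85. The control libraries gave the same order of clusters, with 50.0% ± 1.73 (n = 3) from Hoxb and 9.91% ± 1.28 from Hoxd.

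**Figure D1:**
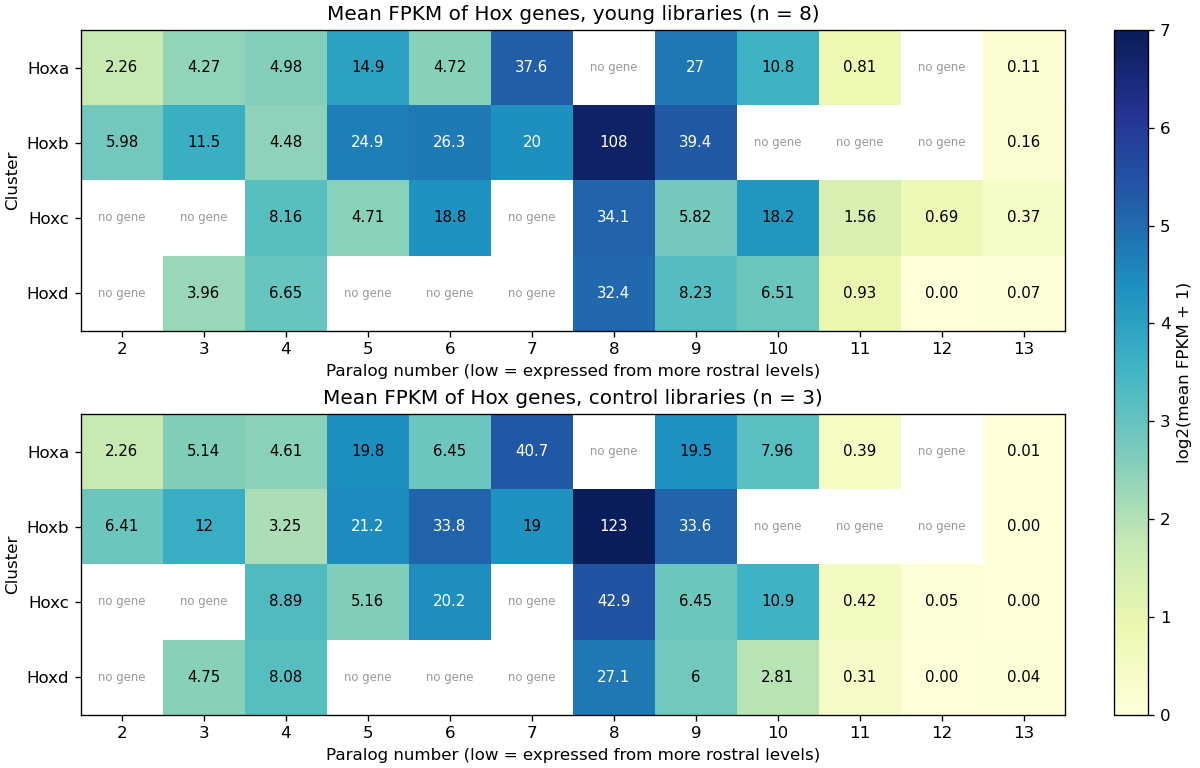
Mean FPKM of the Hox genes of paralogs 2 to 13 in young (n = 8) and control (n = 3) libraries, with clusters in rows, paralog numbers in columns and colour giving log2(mean FPKM + 1). Hoxb8 was the highest in both, at a mean of 107.5 and 123.4 FPKM, and paralogs 12 and 13 were near 0.

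The members with the highest mean level of each cluster in the young were Hoxa7, Hoxb8, Hoxc8 and Hoxd8. Hoxb8, whose loss in mice causes compulsive grooming, ranged over 94.9, 108.5 and 115.9 FPKM (lowest, median and highest) in the young and over 84.6, 106.4 and 114.7 in the old. In the SOD1-G93A experiment it was at 125.8, 118.7 and 125.5 FPKM in the controls and at 76.6, 108.6 and 95.1 in the SOD1-G93A libraries. Hoxb8 stood apart from every other member, since its lowest young value lay above the highest value of the next gene, Hoxb9, at 39.4 ± 4.62 FPKM.

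Hoxa7, a thoracic-level gene, ranged over 36.3, 36.9 and 40.4 FPKM in the young and over 31.0, 36.2 and 46.2 in the old. Its controls were at 42.6, 38.3 and 41.1 FPKM and the SOD1-G93A libraries at 32.8, 36.5 and 39.3. Hoxc8, which specifies forelimb motor pools, ranged over 32.5, 33.3 and 38.5 FPKM in the young and over 22.6, 27.9 and 47.8 in the old. The highest of these old values came from library d149027, and the other 7 old libraries were at 31.8 FPKM or below, under every young value. In CPM this did not hold, since old library d149034 (75.1) lay within the young range of 66.9 to 80.7. The difference did not pass (log2 fold change -0.20, adjusted p = 0.227, edgeR). In the SOD1-G93A experiment Hoxc8 was at 45.5, 37.0 and 46.3 FPKM in the controls and at 36.9, 36.7 and 34.4 in the SOD1-G93A libraries. Hoxd8 ranged over 27.0, 32.4 and 37.8 FPKM in the young and over 25.1, 30 and 33.9 in the old, with 27.7, 27.4 and 26.1 in the controls and 18.1, 26.2 and 21.8 in the SOD1-G93A libraries. In the order of young levels, the ranges of Hoxb9, Hoxa7, Hoxc8, Hoxd8, Hoxa9, Hoxb6 and Hoxb5 overlapped from each gene to the next, so that only Hoxb8 was set off at the top.

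At the rostral end, Hoxb1 had a mean of 0.041 FPKM in the young, while Hoxb3 reached 11.5 ± 1.54. At the caudal end, Hoxc10 was the most abundant of the lumbar genes at 18.2 ± 4.06 FPKM, followed by Hoxa10 at 10.8 ± 1.77 and Hoxd10 at 6.51 ± 2.33. Hoxc11 was at 1.56 ± 0.83 FPKM and Hoxd11 at 0.93 ± 0.44. Hoxd12 had counts in only 1 of 22 libraries, old library d149026, at 0.117 CPM, where 3 counts correspond to 0.352 CPM.

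The clusters lie in GRCm38 on chromosome 6 (Hoxa), 11 (Hoxb), 15 (Hoxc) and 2 (Hoxd). Promoter sequences are shown for Hoxb8, the most abundant member, and for 2 lumbar genes that varied together between libraries, Hoxa10 and Hoxd10. Each is the 250 bases before the annotated start, 5′ to 3′ on the gene's strand, with CG dinucleotides in capitals (RefSeq, GRCm38.p6): Hoxb8 at chr11:96281655-96281904 on the plus strand, Hoxa10 at chr6:52240855-52241104 on the minus strand and Hoxd10 at chr2:74691641-74691890 on the plus strand.
Hoxb8: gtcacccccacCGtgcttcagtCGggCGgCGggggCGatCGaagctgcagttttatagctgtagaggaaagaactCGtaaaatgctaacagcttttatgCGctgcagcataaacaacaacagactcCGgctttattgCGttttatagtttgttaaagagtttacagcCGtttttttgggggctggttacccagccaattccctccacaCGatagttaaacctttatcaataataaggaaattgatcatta
Hoxa10: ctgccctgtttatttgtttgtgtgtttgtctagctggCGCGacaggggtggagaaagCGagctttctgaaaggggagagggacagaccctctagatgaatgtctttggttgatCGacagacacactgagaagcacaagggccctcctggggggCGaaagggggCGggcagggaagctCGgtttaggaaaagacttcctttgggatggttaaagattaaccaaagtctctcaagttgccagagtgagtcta
Hoxd10: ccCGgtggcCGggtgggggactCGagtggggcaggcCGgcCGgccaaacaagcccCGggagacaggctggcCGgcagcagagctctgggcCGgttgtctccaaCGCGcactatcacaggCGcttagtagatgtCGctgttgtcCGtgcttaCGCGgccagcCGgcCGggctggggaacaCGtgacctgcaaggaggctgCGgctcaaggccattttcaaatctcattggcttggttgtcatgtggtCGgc
These hold 12, 7 and 20 CG dinucleotides. Of the 39 members, 22 matched an entry, with a median of 12 CG dinucleotides (range 2 to 35) against 6 over all 27025 promoters. TTTATG or its reverse complement CATAAA, a motif of caudal (Cdx) factors searched on both strands, was found in 5 of the 22 Hox promoters, Hoxb8 among them, and in 11.1% of all promoters.

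The level of cord sampled was checked by the ratio of the summed FPKM of paralogs 10 to 13 to that of paralogs 4 to 9. It was between 0.0608 and 0.115 in the young, with a median of 0.0956. In the old it spread over 0.0253, 0.0923 and 0.137 (lowest, median and highest), so that the old range reached beyond the young range on both sides. Old libraries d149027 (0.0253) and d149028 (0.0412) lay below every young library, and d149026 (0.137) and d149034 lay above. The controls were at 0.0354, 0.0830 and 0.0358, and the SOD1-G93A libraries d4435, d4437 and d4443 at 0.0139, 0.0705 and 0.0417. The groups overlapped in both experiments, and the log2 difference of medians was -0.057 for old minus young and 0.22 for SOD1-G93A minus control, each smaller than the spread between libraries.

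**Figure D2:**
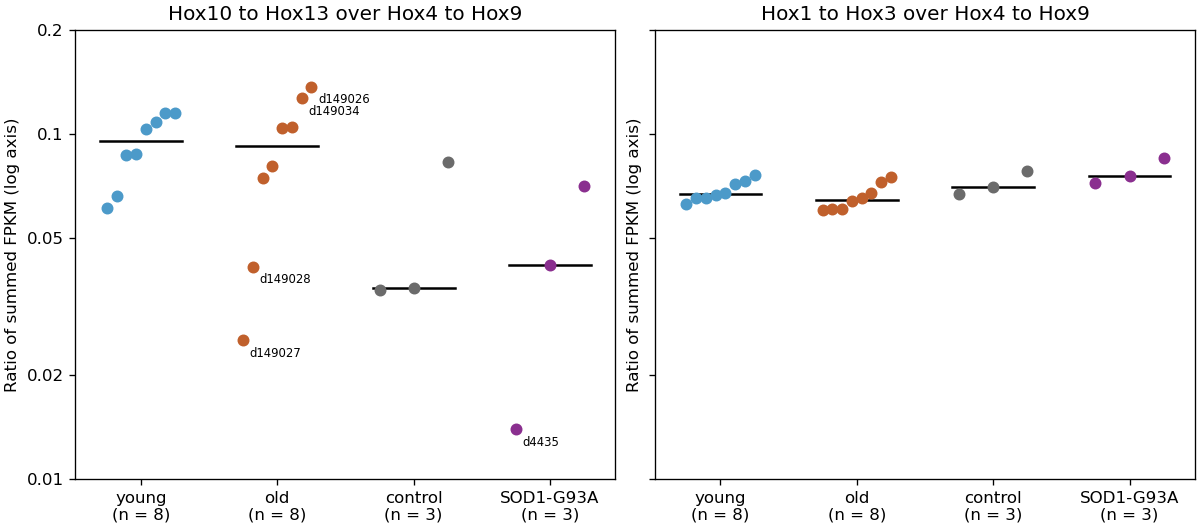
Ratio of summed FPKM (log axis) of paralogs 10 to 13 (left) and 1 to 3 (right) over paralogs 4 to 9, with 1 point per library and a bar at each group's median. The caudal ratio ran from 0.0139 to 0.137 over the 22 libraries, and the rostral ratio only from 0.0603 to 0.0853.

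As a share of all Hox counts, paralogs 10 to 13 made up 10.9% (95% Wilson interval 10.2 to 11.7) in old library d149026 and 2.19% (1.88 to 2.54) in old library d149027. In the SOD1-G93A library d4435 the share was 1.25% (1.03 to 1.51), against 6.06% (5.59 to 6.57) in d4437. Among the young, libraries d149019 (5.17%, 4.67 to 5.73) and d149020 (5.42%, 4.91 to 5.97) were the lowest and d149011 the highest (9.36%, 8.80 to 9.96). These intervals cover counting error only. They do not overlap between the extremes of any group, so the spread was larger than counting error in all 4 groups. The ratio of paralogs 1 to 3 to paralogs 4 to 9, by contrast, stayed within 0.0603 and 0.0853 over all 22 libraries.

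**Figure D3:**
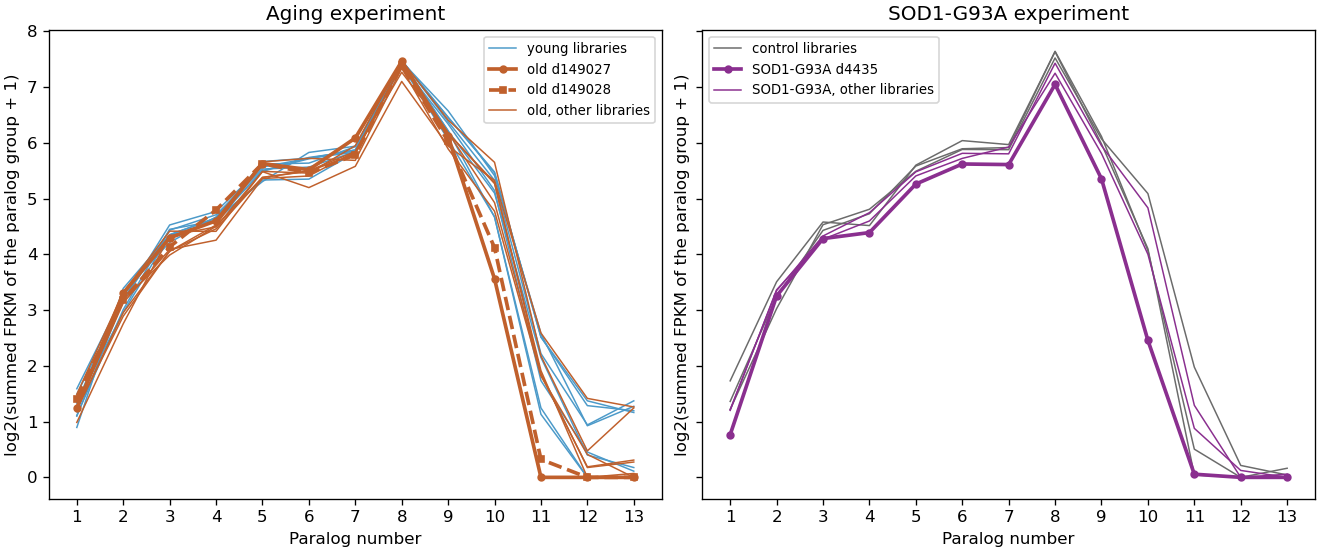
Summed FPKM of each paralog group, as log2(FPKM + 1), with 1 line per library in the aging (left) and SOD1-G93A (right) experiments. Lines run close together up to paralog 9 in the aging experiment and fan out from paralog 10, where old library d149027 summed to 10.8 FPKM and SOD1-G93A library d4435 to 4.49. In the SOD1-G93A group paralog 9 already ran from 39.96 to 60.85 FPKM.

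Single lumbar genes showed the same spread. Hoxd10 had 0 counts in old library d149027 and in SOD1-G93A library d4435, where 3 counts would correspond to 0.404 and 0.254 CPM, and between 13 and 158 counts in the other 20. Hoxc10, which took the most counts of the lumbar genes, ranged over 24.6, 37.6 and 46.1 CPM (lowest, median and highest) in the young and over 16.0, 38.3 and 62.5 CPM in the old. It was at 17.2, 31.1 and 18.1 CPM in the controls and at 4.75, 28.6 and 15.9 in the SOD1-G93A libraries. All 6 genes of paralogs 10 and 11 had their lowest old value in library d149027 and their lowest SOD1-G93A value in d4435. Likewise all 6 were highest in control library d4441 and in SOD1-G93A library d4437.

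In the young and the old, the spread between libraries was smallest for the middle paralogs. Over 19 genes of paralogs 4 to 9, the median coefficient of variation of CPM was 8.99% in the young and 14.9% in the old, where counting alone would give 6.82% and 7.46% at these depths. Over the 6 genes of paralogs 10 and 11 it was 43.1% in the young and 67.2% in the old, where counting alone would give 14.6% and 17.9%. Hoxa7 had the lowest value of the young set, at 4.11%, and Hoxd11 the highest, at 55.9%. In the SOD1-G93A group the median was 12.95% for paralogs 4 to 9, where Hoxd9 reached 55.2%, and 13.1% for paralogs 1 to 3.

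Lumbar genes on different chromosomes varied together. Across the 8 young libraries, log2 CPM of Hoxc10 and Hoxd10 gave Pearson r = 0.94 (exact permutation adjusted p = 0.00613) and Spearman rho = 0.90 (adjusted p = 0.0319). Across the 8 old libraries it gave r = 0.91 (exact permutation adjusted p = 0.00208) and rho = 0.88 (adjusted p = 0.0338). Without the 2 libraries farthest from the median of Hoxc10, r stayed at 0.77 in the young and 0.91 in the old. Hoxc10 and Hoxa10 gave r = 0.88 (exact permutation adjusted p = 0.0139) and rho = 0.83 (adjusted p = 0.0431) in the young, and r = 0.97 (exact permutation adjusted p = 0.00104) and rho = 0.98 (adjusted p = 0.00556) in the old. Without the 2 farthest libraries these r values were 0.57 and 0.90, so the young relation rested in part on d149019 and d149020. Hoxa10 and Hoxa11 gave r = 0.88 (exact permutation adjusted p = 0.0566, rho = 0.52) in the young and 0.92 (adjusted p = 0.0186, rho = 0.64) in the old. Both fell without the 2 farthest libraries, to -0.59 and 0.18, so this relation rested on those libraries.

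Pairs at rostral levels did not pass the same test, in which 14 relations (7 pairs in 2 groups) were adjusted together. Hoxb4 and Hoxc4 gave r = 0.22 in the young and 0.066 in the old, and Hoxa5 and Hoxc5 gave -0.17 and 0.36, with exact permutation adjusted p of at least 0.596. In the young, coefficients of variation were only 6.75% for Hoxb4 and 6.23% for Hoxc4. Counting alone would give a median of 6.82% over paralogs 4 to 9, and more at the lower counts of Hoxb4 and Hoxc4 (means 94.4 and 136). A relation of this pair could therefore hardly show in the young. Counting error also limits Hoxc5 in the young (12.4% at a mean of 70.6 counts) and Hoxc4 in the old (8.51% at 121). A lack of relation is not shown for their pairs in those groups. Of the pairs that cross levels, Hoxc10 and Hoxc4 gave r = 0.086 in the young and -0.64 in the old (exact permutation adjusted p = 0.877 and 0.151). Its old rank correlation passed at rho = -0.83 (exact permutation adjusted p = 0.0431), and r without the 2 farthest libraries was -0.24. Hoxa10 and Hoxa5 gave r = 0.76 in the young and -0.27 in the old (exact permutation adjusted p = 0.0533 and 0.738). As a description without a test, the 12 pairs of paralogs 10 and 11 on different clusters had a median r of 0.87 in the young and 0.95 in the old, all 12 positive. The 325 pairs within paralogs 1 to 9 had medians of 0.085 and 0.26.

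**Figure D4:**
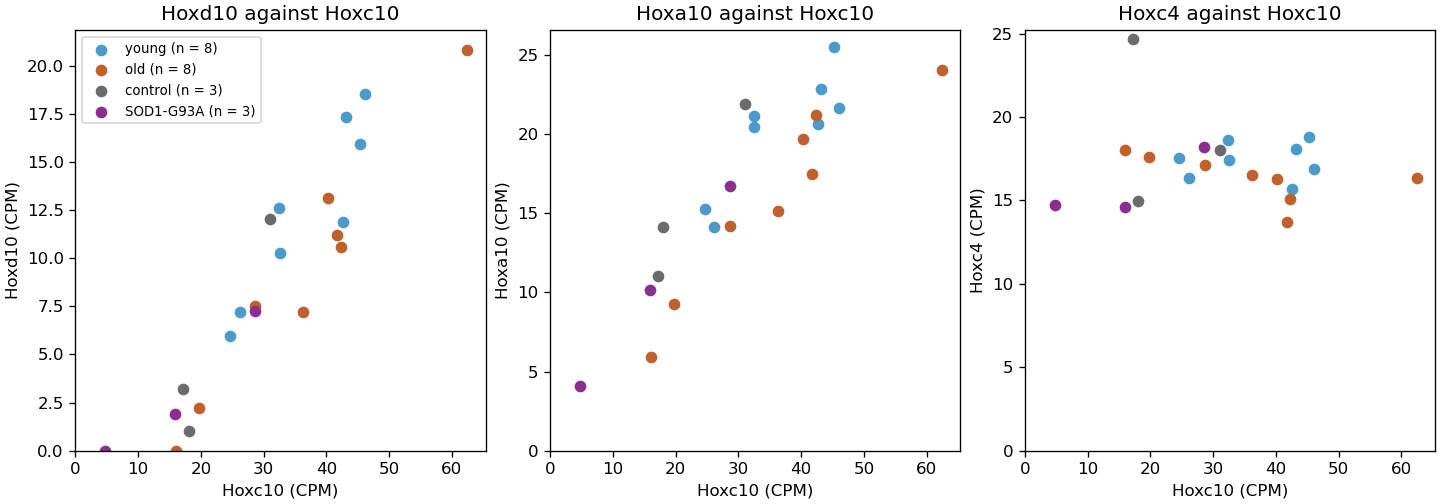
CPM of Hoxd10, Hoxa10 and Hoxc4 against CPM of Hoxc10, with 1 point per library and colours for the 4 groups. Hoxd10 and Hoxa10 rose with Hoxc10 in both aging groups (r between 0.88 and 0.97), while r for Hoxc4 was 0.086 in the young and -0.64 in the old. Hoxc4 varied little between young libraries (coefficient of variation 6.23%), so a relation could hardly show there.

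Between old and young cords, Hox expression changed little, and the members that passed the test were all lower in the old. At an adjusted p under 0.05, 6 of the 32 members tested fell and 0 rose (edgeR quasi-likelihood test). Over all 13647 genes tested, 12.9% fell and 13.5% rose, 26.4% in either direction. They were Hoxd4, Hoxb9, Hoxd3, Hoxc6, Hoxb3 and Hoxa9, from all 4 clusters and from paralogs 3 to 9, and none fell to less than 0.706 times the young level. At an unadjusted p under 0.05, 1 member was higher, Hoxc5, and the 6 above were lower. DESeq2 also called 0 higher and 6 lower. Only Hoxd4 and Hoxb9 passed in every edgeR fit that left out 1 library. The other 7 members, among them all of paralogs 12 and 13 and Hoxb1, had too few counts to be tested.

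Hoxd4, active from the hindbrain boundary downwards, ranged over 11.3, 12.02 and 13.5 CPM (lowest, median and highest) in the young and over 6.71, 9.18 and 10.3 CPM in the old. All 8 old values lay below all 8 young values in CPM, though not in FPKM (3.58 to 6.37 against 6.06 to 7.84), and the log2 fold change was -0.46 (SE 0.092, adjusted p = 0.000666). It was the only member whose groups did not overlap, 3.12% of those tested against 1.66% of all genes lower and 3.66% higher in the old. Hoxb9, a thoracic gene, ranged over 80.6, 102.5 and 114.1 CPM in the young and over 63.1, 77.4 and 91.5 CPM in the old. Its groups overlapped between the 3 lowest young and the highest old values, and its log2 fold change was -0.35 (SE 0.080, adjusted p = 0.00226).

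Hoxd3, which lies beside Hoxd4, ranged over 8.34, 9.29 and 13.96 CPM in the young and over 5.44, 6.55 and 12.96 CPM in the old, with a log2 fold change of -0.50 (SE 0.16, adjusted p = 0.0212). Old library d149034 held the value of 12.96, and the other 7 old libraries lay below every young library in CPM. This did not hold in FPKM, where old library d149026 (3.44) lay above young libraries d149012 (2.95) and d149020 (3.00). Hoxd3 and Hoxd4 share 388 exonic bases with each other, and the annotated gene Gm28230 shares 53.1% of the exonic bases of Hoxd3 and 39.1% of those of Hoxd4, so their counts are not independent. Hoxc6, of the forelimb motor column, ranged over 22.6, 27.5 and 33.1 CPM in the young and over 17.6, 21.9 and 28.8 CPM in the old, a log2 fold change of -0.29 (SE 0.097, adjusted p = 0.0310). Hoxb3 went from 22.6, 28.2 and 32.4 CPM to 20.7, 23.6 and 26.5 CPM, a log2 fold change of -0.22 (SE 0.076, adjusted p = 0.0377). An antisense gene, Hoxb3os, overlaps 52.9% of its exonic bases, and whether the counting used strand is not given in the sources used here. Hoxa9 went from 37.2, 41.0 and 52.9 CPM to 29.3, 34.5 and 46.4 CPM, a log2 fold change of -0.27 (SE 0.0935, adjusted p = 0.0388), and it did not pass in 1 fit of all 22 libraries (-0.27, adjusted p = 0.0981). The old and young ranges of Hoxc6, Hoxb3 and Hoxa9 overlapped.

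The remaining tested members did not pass. Their log2 fold changes lay between -0.49 (Hoxd11) and 0.27 (Hoxc5, SE 0.12, adjusted p = 0.0833). The most abundant genes showed small differences: Hoxb8 gave -0.033 (approximate 95% interval -0.20 to 0.13), Hoxd8 -0.036 (-0.14 to 0.072) and Hoxa7 0.032 (-0.12 to 0.18). For the lumbar genes the intervals were wide, from -1.22 to 0.25 for Hoxd10 and from -0.43 to 0.34 for Hoxc10, and 0 of the 6 tested members of paralogs 10 and 11 passed, also at an unadjusted p under 0.05. Over the 32 members, 27 had a negative log2 fold change with a median of -0.14, against 50.6% of all genes and a median of -0.003. No member passed the added threshold of a log2 fold change of 1 in either direction, which 2.22% of all genes did (0.044% lower and 2.18% higher). Fitted without the 2 old libraries d149027 and d149028, Hoxd4 (-0.49, adjusted p = 0.00165), Hoxb9 (-0.37, adjusted p = 0.00485), Hoxc8 (-0.34, adjusted p = 0.00678) and Hoxb4 (-0.29, adjusted p = 0.0475) were lower, and Hoxd3 (adjusted p = 0.0928), Hoxc6 (0.0797), Hoxb3 (0.0604) and Hoxa9 (0.177) did not pass. With the level of paralogs 10 to 13 as a covariate, Hoxd4, Hoxb9 and Hoxd3 were lower and Hoxc10 higher (0.16, adjusted p = 0.0307), although Hoxc10 is itself part of that covariate.

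**Figure D5:**
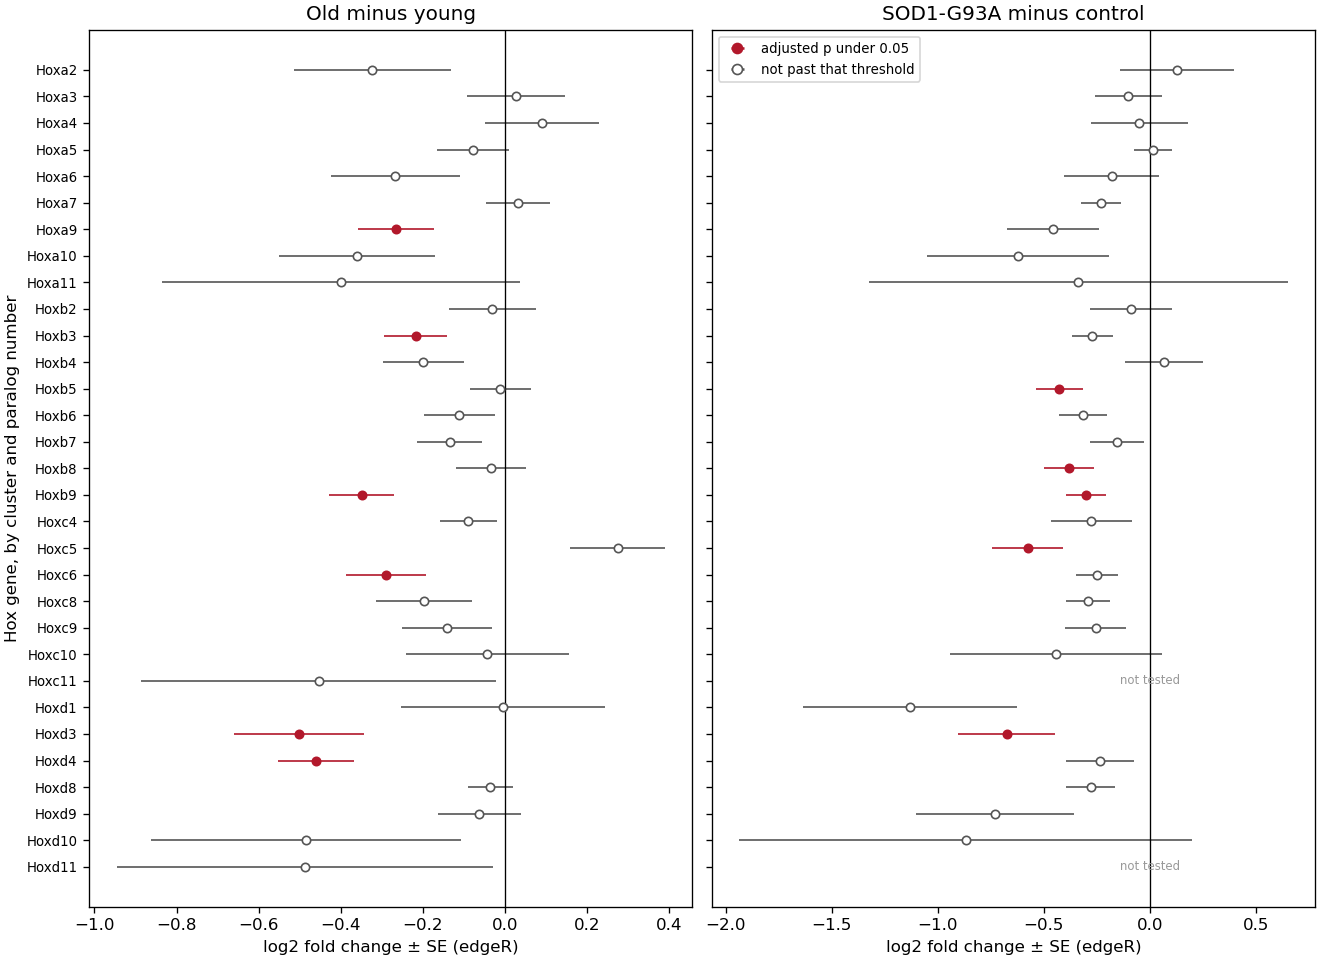
log2 fold change ± SE of tested Hox genes, old minus young on the left and SOD1-G93A minus control on the right, with filled red points at an adjusted p under 0.05 (edgeR). The 6 filled points on the left and the 5 on the right all lie below 0, and the widest error bar in each panel belongs to a member of paralogs 10 and 11.

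The regulators and partners of Hox genes were read from lists chosen for their role. Among 9 TALE cofactors, homeodomain proteins that bind DNA together with Hox proteins, Meis3 rose in the old (log2 fold change 0.20, SE 0.073, adjusted p = 0.0448) and Pknox1 fell (-0.23, SE 0.075, adjusted p = 0.0282). Of 20 Polycomb genes, which keep Hox clusters silent, Cbx7 rose (0.17, adjusted p = 0.0122), and Jarid2 (-0.33, adjusted p = 0.000667), Phc1 (-0.18, adjusted p = 0.0115) and Suz12 (-0.19, adjusted p = 0.0333) fell. Of 12 trithorax genes, which keep them active, 4 fell: Kmt2d (-0.36, adjusted p = 0.000393), Kmt2c (-0.26, adjusted p = 0.00109), Kdm6b (-0.27, adjusted p = 0.00667) and Ash2l (-0.17, adjusted p = 0.0280). Of these 12, 2 were higher at an unadjusted p under 0.05, and DESeq2 called 4 lower and 0 higher. Summed microglial and macrophage markers were at 284 to 306 CPM in the young and 501 to 841 in the old, with 9 of 10 higher, and their part in these differences was not tested.

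Between SOD1-G93A and control cords, the Hox genes that passed the test were again all lower. Of 30 members tested, 5 fell and 0 rose at an adjusted p under 0.05 (edgeR), where 15.5% of the 14386 genes tested fell and 18.4% rose, 33.9% in either direction. They were Hoxb5, Hoxc5, Hoxb9, Hoxb8 and Hoxd3. At an unadjusted p under 0.05, 11 members were lower and 0 higher, and DESeq2 called 5 lower and 0 higher. In whole-cord RNA, fewer cells that express a gene and less RNA per cell cannot be told apart.

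Hoxb5, a paralog of the phrenic genes Hoxa5 and Hoxc5, was at 45.9, 39.2 and 49.1 CPM in the controls and at 31.4, 36.3 and 32.3 CPM in the SOD1-G93A libraries, a log2 fold change of -0.43 (SE 0.11, adjusted p = 0.0189). Hoxc5 was at 11.8, 14.1 and 13.3 CPM in the controls and at 8.64, 10.4 and 7.34 CPM in the SOD1-G93A libraries, a log2 fold change of -0.58 (SE 0.17, adjusted p = 0.0288). The groups of both genes were separate in CPM. In FPKM those of Hoxb5 were separate too, but those of Hoxc5 overlapped (3.93 to 6.25 in the controls against 2.82 to 4.58). Hoxc5 shares 166 exonic bases with Hoxc10 on the same strand. Hoxa5 itself was at 42.2, 38.4 and 37.4 CPM against 38.3, 40.9 and 40.1 CPM, with overlapping groups and a log2 fold change of 0.016. Its approximate 95% interval, -0.16 to 0.19, is too narrow for so few libraries.

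Hoxb9 was at 90.8, 87.1 and 85.9 CPM in the controls and at 63.9, 77.7 and 72.8 CPM in the SOD1-G93A libraries, a log2 fold change of -0.30 (SE 0.093, adjusted p = 0.0348). Hoxb8 was at 253, 237 and 248 CPM against 157, 216 and 193 CPM, a log2 fold change of -0.38 (SE 0.12, adjusted p = 0.0361). In both genes the lowest SOD1-G93A value was that of d4435 and the highest that of d4437, and all 3 lay below the controls. Hoxd3 was at 9.02, 11.3 and 16.9 CPM against 7.63, 8.16 and 7.61 CPM, a log2 fold change of -0.68 (SE 0.23, adjusted p = 0.0499), and with only genes of at least 10 counts in every library it did not pass (-0.67, adjusted p = 0.0513). In CPM its SOD1-G93A libraries were close together, and the controls varied more. In FPKM the groups of Hoxd3 overlapped (3.06 to 6.14 in the controls against 2.59 to 3.69).

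Over the 30 members, 27 had a negative log2 fold change, with a median of -0.29 against 0.003 for all genes, of which 49.7% were negative. In 14 members, 46.7%, all 3 SOD1-G93A values in CPM lay below all 3 controls, which held for 24.7% of all genes, while 25.7% were separate in the other direction. Summed over members, the Hox level was 1020 to 1032 CPM in the controls and 712, 926 and 840 CPM in d4435, d4437 and d4443. Hoxd1 had the most negative log2 fold change, -1.13 (SE 0.50), and did not pass (adjusted p = 0.113). Hoxa2 (0.13), Hoxb4 (0.065) and Hoxa5 (0.016) were the members above 0. The lumbar genes gave no call and wide intervals, from -2.96 to 1.22 for Hoxd10 and from -1.42 to 0.53 for Hoxc10. No member passed the added threshold of a log2 fold change of 1, which 9.7% of all genes did (1.2% lower and 8.5% higher).

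The calls depended on single libraries. Without SOD1-G93A library d4435 or d4443, or control library d4444, 0 members passed in edgeR. Such fits leave 2 libraries in 1 group. Without control d4438 (Hoxc5 and Hoxd3) or d4441 (Hoxb5 and Hoxc8), 2 did, and without SOD1-G93A library d4437, 12 did. All 5 genes kept a negative log2 fold change in each of these fits. With the level of paralogs 10 to 13 as a covariate, 2 passed, Hoxb5 (-0.42, adjusted p = 0.0265) and Hoxc8 (-0.34, adjusted p = 0.0319).

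Neuron, microglial and astrocyte marker sums ordered the SOD1-G93A libraries as the Hox sum did, or in reverse. The motor neuron and oligodendrocyte sums did not. Summed over 10 neuron markers, the level was 9577 to 10120 CPM in the controls and 3868, 6403 and 4451 CPM in d4435, d4437 and d4443, and 9 of the 10 fell. The motor neuron list was at 333 to 362 CPM in the controls, and 6 of 11 markers were lower in SOD1-G93A cords. Its sums were 193, 184 and 183 CPM in d4435, d4437 and d4443, so here d4435 was the highest. Oligodendrocyte markers summed to 26576, 26445 and 29157 CPM in these libraries. Microglial and macrophage markers were at 293 to 356 CPM in the controls and at 2543, 1212 and 1974 CPM in d4435, d4437 and d4443. Thus d4435 was the lowest of the 3 SOD1-G93A libraries in Hox and neuron sums and the highest in the microglial sum, and d4437 the reverse. Summed astrocyte markers were at 7617 to 8260 CPM in the controls and at 20140, 13272 and 17782 CPM in d4435, d4437 and d4443. The part of these differences in cell markers in the lower Hox levels was not tested.

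Of the Hox partners and regulators, Meis2 (-0.58, SE 0.16, adjusted p = 0.0219) and Pbx3 (-0.55, SE 0.15, adjusted p = 0.0226) fell in SOD1-G93A cords and Meis3 rose (0.33, SE 0.11, adjusted p = 0.0473), 3 of 9 TALE cofactors. Of 20 Polycomb genes Jarid2 fell (-0.36, SE 0.093, adjusted p = 0.0169). The 12 trithorax genes gave 0 calls in edgeR and in DESeq2, with 1 higher and 3 lower at an unadjusted p under 0.05. Among 12 retinoid genes, Rarg, a retinoic acid receptor (0.80, SE 0.17, adjusted p = 0.00815), and Aldh1a1, an enzyme that makes retinoic acid (0.40, SE 0.14, adjusted p = 0.0485), were among those that rose. Of the upstream regulators, Egr2, a hindbrain segment gene that Schwann cells also express, rose from at most 0.231 CPM in the controls to 6.84 ± 3.11 CPM (n = 3, adjusted p = 0.000339, edgeR). Among 3 tested homeobox genes related to Hox but outside the clusters, Mnx1 of motor neurons (-1.21, SE 0.32, adjusted p = 0.0194) and Evx1 of interneurons (-1.81, SE 0.39, adjusted p = 0.00866) fell.

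Side by side, Hoxb9 and Hoxd3 passed in both experiments, with log2 fold changes of -0.35 and -0.50 in the old and of -0.30 and -0.68 in SOD1-G93A cords. Hoxd4 gave -0.46 in the old and -0.24 (adjusted p = 0.287) in SOD1-G93A cords, where it was at 12.8, 17.8 and 14.6 CPM in the controls and at 11.4, 13.9 and 13.2 in the SOD1-G93A libraries. Hoxa9 was at 44.4, 43.4 and 39.1 CPM against 19.6, 40.2 and 32.9, a log2 fold change of -0.46 (adjusted p = 0.135). Groups overlapped in both genes. Hoxb3 was at 32.4, 31.8 and 29.6 CPM against 24.997, 27.2 and 25.5 (-0.27, adjusted p = 0.0552), and Hoxc6 at 27.4, 28.5 and 31.5 against 24.997, 24.4 and 24.2 (-0.25, adjusted p = 0.0820). In these last genes all 3 SOD1-G93A values lay below the controls, although neither passed. Of the genes called in SOD1-G93A cords, Hoxb5 ranged over 46.8, 49.3 and 60.5 CPM in the young and over 40.2, 50.7 and 60.1 in the old, and Hoxc5 over 7.66, 8.62 and 11.02 against 8.47, 10.3 and 14.5. Both overlapped between young and old. Hoxb8 gave -0.033 and -0.38, and Hoxc5 gave 0.27 and -0.58. The difference between the experiments was not tested, since library kit and experiment coincide.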

How the data were processed

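The measurement was RNA-seq of the whole cord of 22 mice. STAR alignment and RSEM summarization by the authors used the mm10 genome with Ensembl 88 genes; the submitters' processing notes also name SAMtools 1.3. The authors deposited RSEM expected counts, not normalized between libraries, which are whole numbers. The second deposited table holds log2 values, log2(FPKM + 1), from which FPKM was recovered by 2^value - 1. Columns name a group and a library but no replicate number, so libraries are called by their identifiers. In 62 pairs of libraries within groups, chi-square over degrees of freedom was at least 2.52, so none was counted as a duplicate.

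Symbols, types and positions were from GENCODE M21 on GRCm38 (21919 of 21995 genes found, 21797 protein coding). For each experiment apart, genes were filtered with filterByExpr (minimum count 10, minimum total 15), scaled by TMM and tested with edgeR 4.0.16 (quasi-likelihood, R 4.3.3), and p-values were adjusted by Benjamini-Hochberg across every gene tested. CPM are TMM-scaled. A fold is on the scale of the fitted log2 fold change. Intervals of log2 fold changes were taken from the SE and the normal distribution. With few libraries they are narrower than the edgeR test implies, most so in the SOD1-G93A experiment. Correlations used log2 CPM (prior count 2) and exact two-sided permutation of pairings. Mice of a group are the replicates, with 1 library each. Total counts were 5078092 to 13219797 per library, at which 3 counts correspond to 0.231 to 0.582 CPM.

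The members, gene lists and tests were chosen with earlier results of these data known. Every member with an adjusted p under 0.05 in either comparison and the highest member of each cluster are given by lowest, median and highest in the groups of 8 and per library in the groups of 3, and at most 4 genes of each list are named. A few genes, and results that need them, are not reported here. The 20 lists hold 6 groups of Hox partners, regulators and related genes and 14 sets of cell and tissue markers. The procedure was tested on simulated counts: of genes changed by a log2 fold of 1, 98.0% were recovered with the aging design (13564 genes) and 75.8% with the SOD1-G93A design (14270 genes), and 6.70% and 8.89% of the calls were false. Folds under 1 were not simulated, and the Hox genes called had log2 fold changes between -0.68 and -0.22. The recovery of changes of that size is therefore not known. Alternatives were DESeq2 1.42.0, RLE factors, no filter, at least 10 counts in every library, 1 fit of all 22 libraries, each library left out, another boundary, unit or summary for the paralog ratio, a prior count of 0.5, and CPM per exonic kilobase. Chosen after seeing the data were the log2 summed CPM of paralogs 10 to 13 (plus 0.5) as a covariate and a fit without the 2 old libraries lowest in it.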

Additional observations from a re-analysis of the deposited data

Results flagged for a closer look

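Within the groups of 8, the highest library stood far from the next for 6 of 73 sets of values tested. Chance flags about 1 in 20 where values follow a normal distribution. Hoxa13 was at 1.11 CPM in young library d149009, with the next at 0.341, and at 1.08 CPM in old library d149034, with the next at 0.117. Hoxb13 was at 1.29 CPM in old library d149026, with the next at 0.308, and Hoxc12 at 1.64 CPM in the same library, with the next at 0.463. These genes had few counts in any library, and 3 to 6 of the 8 libraries were at 0 in these sets. The rate of 1 in 20 does not apply to them, so 6 of 73 cannot be read as an excess. Hoxd1 was at 3.08 CPM in old library d149034, with the next at 1.75. Hoxd3 was at 12.96 CPM in the same library, with the next at 7.51, and it was lower in the old group with this library included. Library d149034 also held the highest old value of 10 of the 19 members of paralogs 4 to 9 and of 5 of the 7 tested members of paralogs 1 to 3. Its summed neuron markers (9393 CPM) were the highest of the old group and its microglial markers (501 CPM) the lowest, and their part in these values was not tested.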

How the results depend on the processing

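No paired analysis was possible because the columns carry no replicate numbers. Under DESeq2, RLE factors, no filter and at least 10 counts in every library, the counts of Hox genes called higher, lower or past the fold threshold stayed within 1.5 times the main count, and the cause of the shifts below was not tested. Under these, 1 call ended: Hoxd3 in SOD1-G93A with at least 10 counts in every library (adjusted p = 0.0513). With the level of paralogs 10 to 13 as a covariate, 1 member was higher and 3 lower in the old, and 2 were lower in SOD1-G93A. One fit of all 22 libraries ended the call of Hoxa9 in the old (adjusted p = 0.0981) and gave 11 lower in SOD1-G93A, 1 of them past the fold threshold (Hoxd1, -1.16), and the paralog ratio kept its value within the spread under the 3 other definitions. Leaving out 1 library gave 0 to 1 higher and 3 to 6 lower in the old, and 0 to 12 lower and 0 to 2 past the fold threshold in SOD1-G93A, with the log2 difference of the ratio from -0.24 to 0.13 and from -0.57 to 0.60. The 3 lower in the old came without d149028 (Hoxb9, Hoxd3, Hoxd4) or d149009 (Hoxb9, Hoxc6, Hoxd4), and the 1 higher, Hoxc5, without d149035. In the old, Hoxd4 and Hoxb9 passed in every such fit (highest adjusted p = 0.00176 and 0.00646, edgeR). The other calls were each lost in some fits, with highest adjusted p of 0.0946 (Hoxa9), 0.0785 (Hoxb3), 0.064 (Hoxc6) and 0.0571 (Hoxd3).

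Signs turned only for members not called in the comparison concerned. With the covariate the log2 fold changes were Hoxc10 0.16 and Hoxd9 0.018 in the old, where Hoxc10 then passed, and Hoxa4 0.13, Hoxa11 0.79, Hoxc10 0.035 and Hoxd10 0.11 in SOD1-G93A. Without the 2 old libraries they were Hoxa4 -0.032, Hoxa7 -0.0028, Hoxa11 0.038, Hoxc10 0.19 and Hoxd9 0.0058, and in the single fit Hoxa5 was -0.013 in SOD1-G93A. Leaving out 1 library turned the sign in the old of Hoxa3 (-0.067 to 0.059), Hoxa7 (-0.023 to 0.076), Hoxb2 (-0.077 to 0.025), Hoxb5 (-0.046 to 0.031), Hoxb8 (-0.11 to 0.015), Hoxc10 (-0.20 to 0.067) and Hoxd1 (-0.20 to 0.13). It turned that in SOD1-G93A of Hoxa2 (-0.049 to 0.34), Hoxa3 (-0.20 to 0.029), Hoxa4 (-0.18 to 0.15), Hoxa5 (-0.022 to 0.065), Hoxa11 (-0.91 to 1.47), Hoxb2 (-0.21 to 0.12), Hoxb4 (-0.050 to 0.18), Hoxc10 (-1.10 to 0.0098) and Hoxd10 (-2.53 to 0.52). The low counts of paralogs 10 and 11 and 3 libraries a group limit what the SOD1-G93A comparison can show.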

Other observations

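The remaining marker lists were counted at an adjusted p under 0.05 (edgeR). In the old, 3 of 10 neuron markers fell and 1 rose, 1 of 11 motor neuron markers fell, 5 of 10 astrocyte markers rose and 1 fell, 4 of 10 oligodendrocyte markers fell and 1 rose, and 4 of 7 oligodendrocyte precursor markers fell. Of 10 endothelial and mural markers 3 fell and 1 rose, of 9 meningeal and fibroblast markers 2 fell, of 5 ependymal markers 1 rose and 1 fell, and of 4 Schwann cell and peripheral nerve markers 2 rose and 1 fell. In SOD1-G93A cords, 8 of 10 microglial markers, 6 of 10 astrocyte, 1 of 10 oligodendrocyte, 2 of 7 oligodendrocyte precursor and 3 of 5 ependymal markers rose. Of 10 endothelial and mural markers 2 rose and 2 fell, of 10 meningeal and fibroblast markers 1 rose and 1 fell, of 3 dorsal root ganglion markers 1 rose and 2 fell, and of 6 Schwann cell and nerve markers 2 rose. The muscle, brain and medulla lists had at most 2 testable genes each, with 0 calls in edgeR and 0 at an unadjusted p under 0.05 in either comparison, while DESeq2 called 1 medulla marker higher in the old. The 2 testable dorsal root ganglion markers in the old and the 3 Hox-like genes outside the clusters in the old gave 0 calls in edgeR and DESeq2 and 0 at an unadjusted p under 0.05.

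With the level of paralogs 10 to 13 in the fit, genes outside the Hox clusters that followed it were few. In the aging experiment the slope passed an adjusted p of 0.05 (edgeR) for 11 of 13647 genes. Of these, 6 were the tested members of paralogs 10 and 11, which are part of the covariate. The other 5 had positive slopes (log2 per log2): Trpm3, an ion channel, 0.37 (SE 0.054, adjusted p = 0.00148), Eml6 0.28 (SE 0.052, adjusted p = 0.0382), Fgf1, a growth factor abundant in motor neurons, 0.26 (SE 0.050, adjusted p = 0.0479), Gad2, an enzyme of inhibitory neurons, 0.24 (SE 0.046, adjusted p = 0.0479), and Peg3 0.19 (SE 0.036, adjusted p = 0.0479). No Hox gene of paralogs 1 to 9 was among them. In old library d149027 Trpm3 was at 47.4 CPM, the lowest of the 16 aging libraries. In the SOD1-G93A experiment 26 of 14386 genes passed, 3 of them Hox, 2 others with positive and 21 with negative slopes. Those with the smallest adjusted p were Ccdc3 (-0.59, adjusted p = 0.00167), Prx, a myelin gene of peripheral nerve (-1.87, adjusted p = 0.00236), and Gpnmb, a gene of activated microglia (-0.67, adjusted p = 0.00790). These genes were looked for after the spread of the lumbar Hox genes had been seen, and the slopes are values without a cause tested.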
